A study of Mus musculus with 16 samples.

Results

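The 8 genes Kit, Ano1, Etv1, Pdgfra, Kcnn3, Kitl, Pdgfa and Gja1 were followed through 16 RNA libraries of mouse colon, out of 56748 genes counted. They were chosen by name: 3 genes of the interstitial cells of Cajal (Kit, Ano1, Etv1), 2 genes of the Pdgfra cells (Pdgfra, Kcnn3), the ligands Kitl and Pdgfa, and the gap junction gene Gja1. The tissue was the LMMP, the longitudinal muscle with its attached myenteric plexus, microdissected from the proximal or distal colon. HSCR mice were Ednrb -/- (the Ednrb tm1Ywa allele, a disrupted endothelin B receptor gene, on a hybrid C57BL6/J-129Sv background), and WT mice were their Ednrb +/+ littermates. By the study's methods the mice were 2 to 4 weeks old. There were 4 libraries in each of 4 groups: WT proximal, HSCR proximal, WT distal and HSCR distal. No agent was given, and the allele is constitutive, so every cell of an HSCR mouse carries it. The study describes the model as one of distal colonic aganglionosis. In HSCR mice it set the bounds of the proximal segment by distention and checked it by staining for the neuronal marker Tuj1. It reports sparse and small ganglia in the distal HSCR colon. The proximal segment was therefore taken as ganglionic and the distal one as affected.

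Interstitial cells of Cajal are the pacemaker cells of the gut muscle. They carry the receptor tyrosine kinase KIT, whose ligand KITL maintains them, and their slow waves depend on the calcium-activated chloride channel ANO1. ETV1 is an ETS transcription factor of these cells that acts downstream of KIT signalling. The Pdgfra cells are a second interstitial population, which lies beside nerve endings and relays inhibitory purinergic input through the small-conductance potassium channel SK3, encoded by Kcnn3. Both cell types are coupled to smooth muscle, the Cajal cells in part through gap junctions of the connexin 43 kind, encoded by Gja1. PDGFA is a ligand of PDGFRA.

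Some properties of the libraries bear on every value. Ednrb held 33.9 to 67.7 CPM (counts scaled to the total of the library, with TMM factors) in WT proximal and 12.2 to 40.2 CPM in WT distal libraries. It held 7.85 to 36.3 CPM in the HSCR proximal libraries and 5.55 to 97.0 CPM in those labelled HSCR distal. Counts cover the whole gene, so reads outside the disrupted stretch enter these values. A score of position along the colon, built from genes that separate the WT segments and so no check of the WT libraries themselves, was -3.61 to -2.76 in WT proximal and 1.58 to 2.89 in WT distal libraries. The library labelled HSCR proximal 1 scored 1.13 and the library labelled HSCR distal 1 scored -2.81 with 97.0 CPM of Ednrb, so both go against their labels. Values without these 2 libraries are given for some of the members and differences. HSCR distal 4 scored -0.88 and HSCR proximal 2 scored -0.91, so both lay between the ranges of the WT segments. HSCR proximal 2 held the most RNA of 12 intestinal epithelium genes, 17863 CPM in sum, where the WT proximal libraries held 46.6 to 3877 CPM. The total count was 21384372 to 45831881 per library, and a member never had fewer than 131 counts, so the spread between libraries and not the counting error set the precision. Mitochondrial genes took 7.31 to 49.8% of the counts in WT proximal, 5.56 to 20.1% in HSCR proximal, 4.32 to 23.7% in WT distal and 5.93 to 11.3% in HSCR distal libraries. A fit without these genes kept the direction of every member in every comparison.

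Of the members, Kit was set beside genes of other cells that could carry it. KIT is also a receptor of mast cells and melanocytes. The 11 mast cell genes summed to between 3.00 and 37.4 CPM per library, and only Fcer1a was at 0 in all 16 libraries. The 7 melanocyte genes summed to between 0 and 3.77 CPM, and only Tyr was at 0 in all 16. Kit alone held 15.9 to 409 CPM, so its lower end overlapped the range of the mast cell genes. These ranges run over all libraries and are not matched library by library. Over the 16 libraries Kit had a Pearson r of -0.60 with the mean log2 CPM of the 11 mast cell genes. With each group's mean taken off it was -0.66, and the part of mast cells in Kit was not tested. The other members were not set beside other carriers in this way. The 10 smooth muscle genes summed to 5258 to 101532 CPM and the 10 fibroblast genes to 3429 to 22631 CPM. In bulk tissue, fewer cells of a type and less RNA per cell cannot be told apart.

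The sequence upstream of each receptor, channel and transcription factor gene is shown because ETV1 belongs to the ETS family, whose members bind a GGAA core, and because some of these genes moved together across libraries. Each line is 150 bases on the gene's strand, from 250 to 101 bases before the RefSeq start (GRCm38.p6), with every GGAA or its reverse complement TTCC in capitals. The windows are chr5:75574737-75574886 (Kit), chr7:144738674-144738823 (Ano1), chr12:38779832-38779981 (Etv1), chr5:75152001-75152150 (Pdgfra) and chr3:89519914-89520063 (Kcnn3).
Kit: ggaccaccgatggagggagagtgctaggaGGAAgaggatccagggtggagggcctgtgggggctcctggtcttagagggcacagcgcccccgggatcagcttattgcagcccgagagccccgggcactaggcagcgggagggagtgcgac
Ano1: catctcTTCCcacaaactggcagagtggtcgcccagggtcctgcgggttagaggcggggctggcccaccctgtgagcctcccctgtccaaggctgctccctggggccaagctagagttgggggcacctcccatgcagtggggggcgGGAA
Etv1: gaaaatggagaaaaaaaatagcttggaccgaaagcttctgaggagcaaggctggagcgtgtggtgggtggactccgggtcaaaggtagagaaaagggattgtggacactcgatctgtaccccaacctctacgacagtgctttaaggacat
Pdgfra: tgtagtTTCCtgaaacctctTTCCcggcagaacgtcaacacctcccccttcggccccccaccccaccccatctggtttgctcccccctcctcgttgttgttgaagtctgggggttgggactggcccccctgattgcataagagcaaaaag
Kcnn3: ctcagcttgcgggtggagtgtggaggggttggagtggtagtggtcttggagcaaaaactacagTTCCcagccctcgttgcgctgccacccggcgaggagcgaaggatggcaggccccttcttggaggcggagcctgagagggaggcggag
The core was found 1 time upstream of Kit, 2 times upstream of Ano1 and of Pdgfra, 1 time upstream of Kcnn3 and 0 times upstream of Etv1. It occurs, on either strand, in 81.7% of the 32493 windows of the same kind, so these matches do not set the genes apart. The longer form CCGGAA, found in 5.44% of windows, occurred in 0 of the 5.

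Kit and Ano1 had wide and overlapping levels in all 4 groups. Kit (ENSMUSG00000005672, mm39 chromosome 5, 75735576 to 75817382) held 58.8, 285, 82.0 and 57.5 CPM in WT proximal libraries 1 to 4 and 161, 25.2, 165 and 99.0 CPM in HSCR proximal libraries 1 to 4. It held 15.9, 52.2, 127 and 180 CPM in WT distal and 132, 24.4, 65.7 and 409 CPM in HSCR distal libraries 1 to 4. The lowest and the highest library differed 25.8-fold, and the groups overlapped in both segments. Kit had the widest spread of the members, with a pooled SD of 1.43 on the log2 scale within groups.

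Ano1 (ENSMUSG00000031075, chromosome 7, 144142286 to 144305711) held 30.6, 119, 62.5 and 46.6 CPM in WT proximal and 93.2, 32.3, 101 and 77.7 CPM in HSCR proximal libraries. In the distal colon it held 30.0, 22.7, 86.8 and 125 CPM in WT and 77.1, 42.1, 100.2 and 206 CPM in HSCR. HSCR distal 4 was the highest library for Ano1 as it was for Kit, and the groups overlapped in both segments.

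Etv1 (ENSMUSG00000004151, chromosome 12, 38829379 to 38920483) followed another order. WT proximal libraries held 114, 198, 162 and 118 CPM, and HSCR proximal libraries 81.6, 19.7, 150.1 and 131 CPM. WT distal libraries held 41.6, 191, 118 and 114 CPM, and HSCR distal libraries 101, 68.9, 20.4 and 94.6 CPM. In the proximal colon 2 HSCR libraries lay below all 4 WT libraries. HSCR distal 4, the library highest in Kit and Ano1, was below 3 of 4 WT distal libraries in Etv1.

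The receptor gene of the Pdgfra cells, Pdgfra (ENSMUSG00000029231, chromosome 5, 75312953 to 75358876), held 71.6, 117, 51.6 and 42.2 CPM in WT proximal and 109, 30.9, 146 and 69.0 CPM in HSCR proximal libraries. It held 86.3, 122, 118 and 226 CPM in WT distal and 84.1, 69.3, 104 and 208 CPM in HSCR distal libraries. Only 1 WT proximal library lay above the lowest WT distal one.

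Kcnn3 (ENSMUSG00000000794, chromosome 3, 89427471 to 89582439) held 61.9, 83.5, 83.1 and 47.4 CPM in WT proximal and 66.2, 4.79, 93.6 and 46.9 CPM in HSCR proximal libraries. It held 54.5, 93.4, 88.8 and 131 CPM in WT distal and 58.5, 42.9, 27.2 and 58.6 CPM in HSCR distal libraries. The HSCR distal libraries lay below 3 of the 4 WT distal libraries, and only WT distal 1 fell among them. HSCR proximal 2, the epithelium-rich library, held 4.79 CPM.

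**Figure D1:**
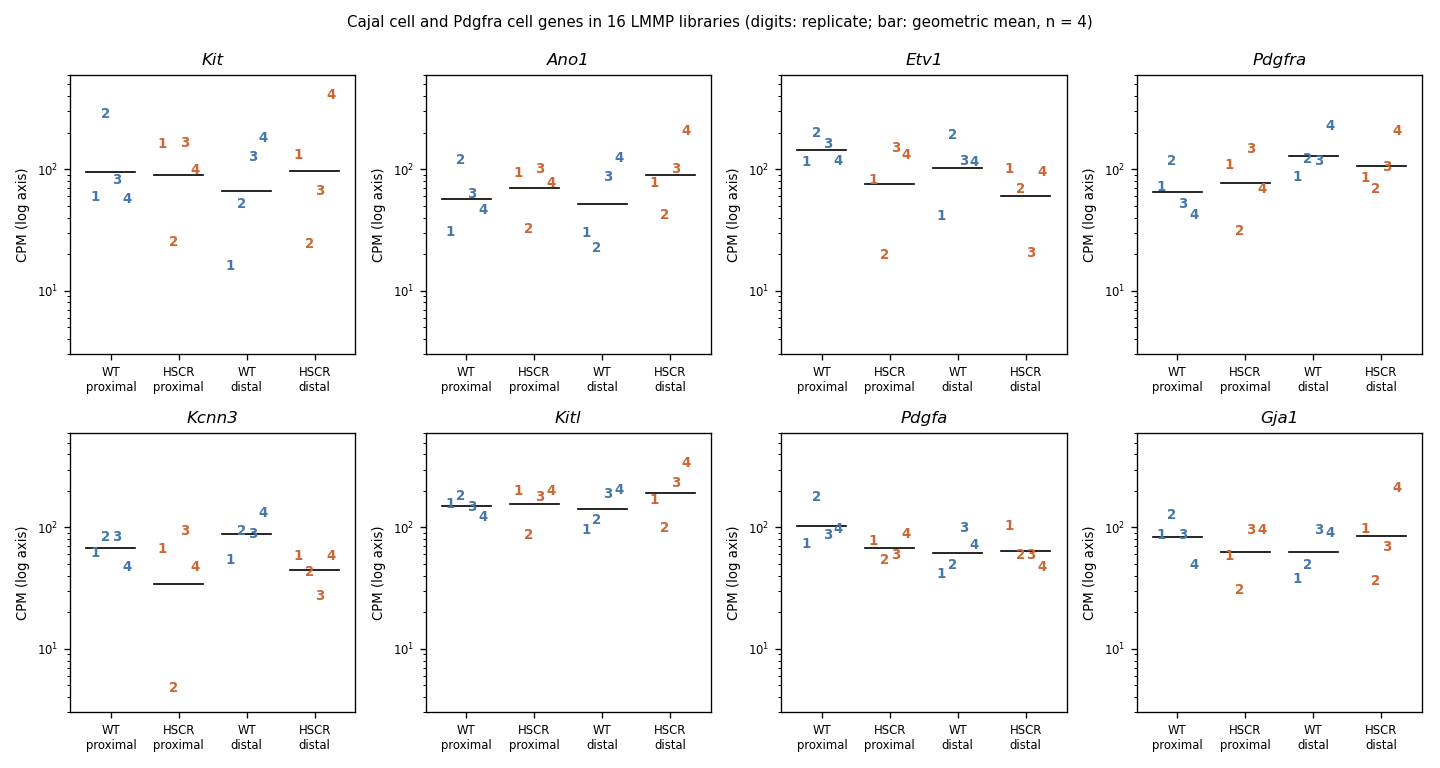
CPM of each of the 8 genes (log axis) in each library by group, where a digit is the replicate number, blue is WT, orange is HSCR and the bar is the geometric mean of 4 libraries. The groups overlap in every panel, with Kit spread from 15.9 to 409 CPM and Kitl from 86.6 to 338 CPM.

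The ligands varied less. Kitl (ENSMUSG00000019966, chromosome 10, 99851492 to 99936278), the KIT ligand, held 122 to 182 CPM in WT proximal, 86.6 to 199 in HSCR proximal, 95.3 to 205 in WT distal and 99.8 to 338 in HSCR distal libraries. Its pooled SD was 0.56 on the log2 scale. Pdgfa (ENSMUSG00000025856, chromosome 5, 138961769 to 138983125) held 72.7 to 178 CPM in WT proximal, 54.4 to 88.5 in HSCR proximal, 41.1 to 98.4 in WT distal and 47.2 to 103 in HSCR distal libraries. Its pooled SD, 0.49, was the smallest of the 8 genes. Gja1 (ENSMUSG00000050953, chromosome 10, 56253426 to 56278609) held 48.9 to 128, 30.7 to 94.9, 37.4 to 96.2 and 36.3 to 211 CPM in the same order of groups.

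Levels of different genes were compared per gene length, in FPKM (reads scaled to the gene model's length and the library's depth). The ligands were highest, with a mean over the 16 libraries of 28.0 FPKM for Kitl and 24.4 FPKM for Pdgfa. Kitl ranked first of the 8 genes in 10 libraries and Pdgfa in the other 6. Kit (13.2 FPKM), Ano1 (12.02 FPKM), Pdgfra (10.04 FPKM), Etv1 (7.94 FPKM) and Gja1 (7.81 FPKM) followed, and Kcnn3 (6.09 FPKM) ranked last in 7 libraries. Each of Kit, Ano1, Etv1 and Pdgfra ranked last in 2 libraries, so the order of these neighbours changed from library to library.

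HSCR and WT were compared in the proximal colon to ask whether the ganglionic segment differs in these genes. Called meant an adjusted p under 0.05 and a log2 fold change beyond 1, by the quasi-likelihood test of edgeR. Of the 8 members 0 were called, and of all 16664 genes tested also 0 (0%), where DESeq2 called 237 genes and 0 members. At an unadjusted p under 0.05 there were 0 members, against 6.62% of all genes, and 0 members had groups that did not overlap, against 4.86%. The log2 fold changes were -0.12 for Kit (95% interval -1.67 to 1.43), 0.22 for Ano1 (-0.88 to 1.31) and -0.65 for Etv1 (-1.87 to 0.58). They were 0.32 for Pdgfra (-0.81 to 1.44) and -0.40 for Kcnn3 (-1.94 to 1.14). A log2 change of 1 in either direction lay within the intervals of Kit and Kcnn3. Pdgfa had the smallest p. Its mean was 109 ± 47.6 CPM in the 4 WT and 69.7 ± 15.9 CPM in the 4 HSCR libraries (SD), with a log2 value of -0.66 (standard error 0.33, edgeR adjusted p = 0.753). Kitl (0.10, interval -0.61 to 0.81) and Gja1 (-0.35, -1.30 to 0.60) also had intervals that held 0. HSCR proximal 2 was the lowest of the 16 libraries in Etv1, Pdgfra, Kcnn3, Kitl and Gja1. Without HSCR proximal 2 the log2 fold change of Kcnn3 was -0.02, and that of Kit was 0.22. With any single library left out, Etv1 ranged from -0.93 to -0.30 and Gja1 from -0.54 to -0.09. Without the libraries labelled HSCR 1, Kit was at -0.34, Etv1 at -0.57 and Kcnn3 at -0.52.

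In the distal colon the comparison asked the same of the affected segment. With edgeR it gave 0 called members and 0 called genes of 17059 (0%), where DESeq2 called 45 genes and 0 members. Kcnn3 was the 1 member at an unadjusted p under 0.05, a level that 2.64% of all genes reached. Its mean was 91.9 ± 31.2 CPM in the 4 WT and 46.8 ± 15.03 CPM in the 4 HSCR libraries (SD), a log2 fold change of -0.99 (95% interval -1.79 to -0.19, edgeR adjusted p = 1.00). The exact permutation test, two-sided, gave p = 0.0857 where the smallest possible value is 0.02857. The log2 fold change of Kcnn3 was -1.13 without the libraries labelled HSCR 1, and between -1.20 and -0.77 with any single library left out. Pdgfra, the other gene of these cells, had a log2 fold change of -0.27 (-1.23 to 0.69). Kit (0.71, interval -1.35 to 2.78), Ano1 (0.65, -0.80 to 2.10) and Etv1 (-0.71, -1.98 to 0.56) had intervals that held 0. The value of Kit was -0.38 without HSCR distal 4. With any single library left out, Ano1 ranged from 0.10 to 1.15 and Etv1 from -1.01 to -0.40. Kitl (0.44, -0.49 to 1.38), Pdgfa (0.02, -0.81 to 0.86) and Gja1 (0.56, -0.67 to 1.80) did not pass either. Pdgfa was at -0.27 without the libraries labelled HSCR 1. For 0 members were the groups without overlap, against 1.82% of all genes.

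**Figure D2:**
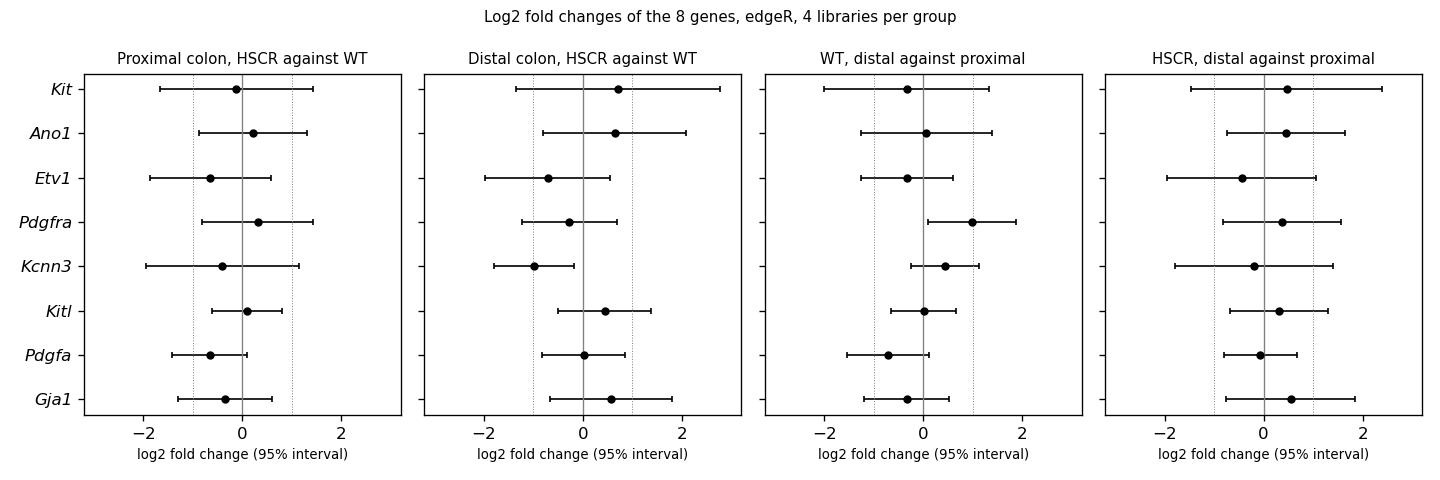
Log2 fold changes (x axis) of the 8 genes in the 4 comparisons between groups of 4 libraries, with 95% intervals from edgeR as bars and dotted lines at 1 and -1. Only Kcnn3 in the distal colon (-0.99) and Pdgfra between the WT segments (0.99) have intervals that leave out 0, and neither passed the adjustment.

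Along the WT colon, Pdgfra was the member with the smallest p. Its mean was 138 ± 60.7 CPM in the distal and 70.7 ± 33.5 CPM in the proximal colon (SD, n = 4), a log2 fold change of 0.99 (95% interval 0.11 to 1.88, edgeR adjusted p = 0.906). The exact permutation test, two-sided, gave p = 0.0571, and the value was 0.65 to 1.33 with any single library left out. Of the 8 members 0 were called by edgeR or DESeq2, against 3 of 16566 genes by edgeR (0.0181%) and 70 genes by DESeq2, and 1 reached an unadjusted p under 0.05, against 5.23%. No member had groups that did not overlap, against 4.36%. With RUVr and a likelihood ratio test in edgeR, which called 2540 genes here, Pdgfra was called (1.04, edgeR adjusted p = 0.00952). Distal minus proximal, Pdgfra differed by 0.16 in mean log2 CPM within replicates 1 and 2, whose library names form a series, and 1.80 within replicates 3 and 4. The names of replicates 3 and 4 are of 1 kind in WT proximal and of another in WT distal, so segment and library name cannot be told apart there. Kcnn3 had a log2 fold change of 0.44 (-0.25 to 1.13), Kit of -0.34 (-2.01 to 1.34) and Pdgfa of -0.71 (-1.54 to 0.12).

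Between the HSCR segments edgeR called 0 members and 0 of 17086 genes (0%), DESeq2 called 4 genes and 0 members, and 0 members reached an unadjusted p under 0.05, against 1.49% of genes. For 0 members were the groups without overlap, against 1.32%. The largest log2 fold change was 0.54 for Gja1 (-0.75 to 1.84). Without both libraries labelled HSCR 1 the values were 0.75 for Kit, 0.68 for Ano1, 0.60 for Pdgfra, 0.49 for Kitl and for Gja1, -0.74 for Etv1, -0.21 for Kcnn3 and -0.31 for Pdgfa, and 0 were called. The difference between the segments in the HSCR minus WT value was tested over all 16 libraries. By edgeR it was called for 0 of the 8 members and 0 of 18619 genes (0%), by DESeq2 for 9 genes and 0 members, and 0 members reached an unadjusted p under 0.05, against 1.44% of genes. The estimates were 0.85 for Kit (-1.73 to 3.44), 0.93 for Gja1 (-0.59 to 2.45) and -0.59 for Kcnn3 (-2.30 to 1.12) on the log2 scale.

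Members were also set against each other within a library, which removes what both genes share, such as depth. These differences carry no test, and the single pairs were chosen after their values were seen. The Cajal cell genes (mean log2 CPM of Kit, Ano1 and Etv1) minus the Pdgfra cell genes (Pdgfra and Kcnn3) averaged 0.47 ± 0.46 in WT proximal, 0.60 ± 0.40 in HSCR proximal, -0.60 ± 0.62 in WT distal and 0.23 ± 0.56 in HSCR distal libraries (SD, n = 4). HSCR minus WT was 0.13 proximally and 0.83 distally, and the groups overlapped in both segments. Leaving out any single library gave -0.08 to 0.29 and 0.58 to 1.06. Without the libraries labelled HSCR 1 it was 0.22 and 0.73. Without Etv1 the difference was 0.48 proximally and 1.30 distally, and against Pdgfra alone it was -0.46 and 0.49, so the proximal direction turned with the choice of genes.

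Kcnn3 stood lower against Pdgfra in HSCR in the proximal colon. Kcnn3 was 0.711 to 1.61 times Pdgfra in the WT proximal libraries and 0.156 to 0.679 times in the HSCR proximal libraries, so the groups did not overlap. The difference of the means was -1.19 on the log2 scale, -0.68 to -1.39 with any single library left out, -1.35 within replicates 1 and 2 and -1.03 within replicates 3 and 4, whose names are of 1 kind in WT and of both kinds in HSCR. Of 16663 genes set against Pdgfra in the same way, 2.02% had HSCR libraries all below the WT libraries. Without HSCR proximal 2, the epithelium-rich library, the difference was -0.68, and without HSCR proximal 1 it was -1.33. In the distal colon the ratio was 0.579 to 0.767 in WT and 0.262 to 0.695 in HSCR, and the groups overlapped, where 0.270% of 17058 genes had HSCR libraries all below the WT libraries. The distal means differed by -0.68 on the log2 scale, and by -0.92 without HSCR distal 1.

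Etv1 stood lower against Ano1 in HSCR in both segments, with overlap. Etv1 was 1.67 to 3.73 times Ano1 in WT proximal and 0.612 to 1.69 times in HSCR proximal libraries, and the means differed by -1.23 on the log2 scale (-1.45 to -0.96 with any single library left out). In the distal colon it was 0.912 to 8.40 times in WT and 0.204 to 1.64 times in HSCR, a difference of -1.54 that ranged from -1.97 to -0.84 with any single library left out. Without the libraries labelled HSCR 1 the differences were -1.13 proximally and -1.86 distally. For the ligand and receptor pair, Pdgfa was 1.02 to 2.28 times Pdgfra in the WT proximal and 0.316 to 0.837 times in the WT distal libraries. The means differed by -1.72 on the log2 scale. All WT distal libraries lay below all WT proximal ones, as was so for 11.0% of 16565 genes set against Pdgfra in this comparison. The ratios are of CPM and follow gene length, so that their change and not their level is of use.

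**Figure D3:**
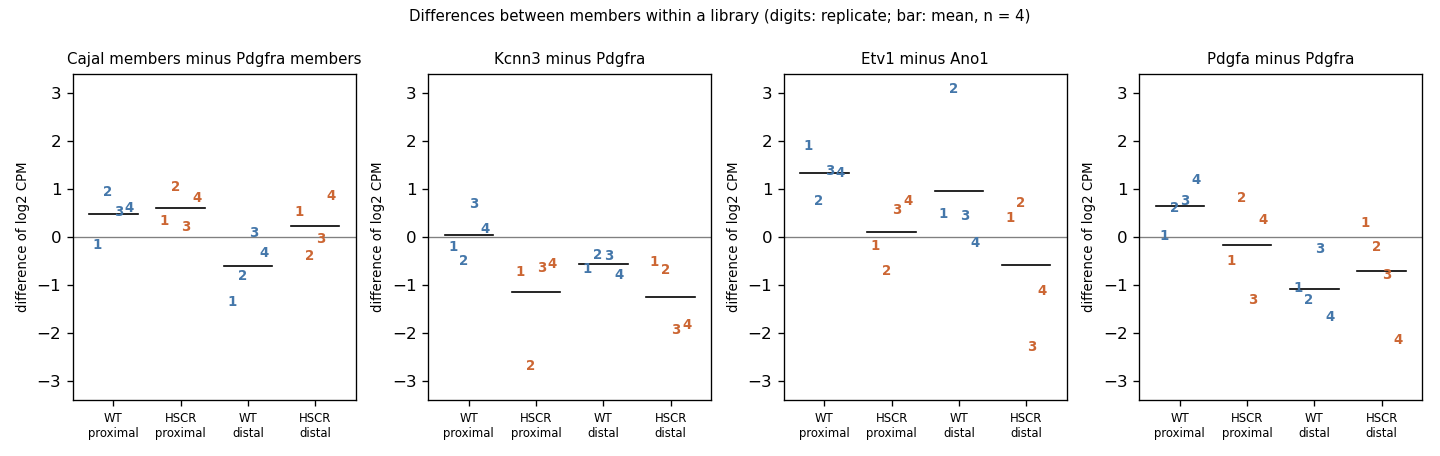
Differences of log2 CPM between members within each library (y axis) by group, where a digit is the replicate number, blue is WT, orange is HSCR and the bar is the mean of 4. Kcnn3 minus Pdgfra is lower in all 4 HSCR proximal than in all 4 WT proximal libraries, and the Cajal members minus the Pdgfra members overlap between the genotypes in both segments.

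Some members moved together over the 16 libraries. These correlations are a description over libraries that share a tissue and may share mice, and they carry no p. Kit and Ano1 had a Pearson r of log2 CPM of 0.86 (Spearman rho 0.90), and 0.80 without the 2 libraries farthest from the median of Kit. Kit and Gja1 had an r of 0.89, and Gja1 ranked 17 of 15195 genes in likeness to Kit. Kitl, the ligand, had an r of 0.86 with Kit and 0.88 with Ano1. Etv1 had an r of 0.17 with Ano1 and 0.52 with Kit, against 0.80 with Kcnn3. Without the 2 libraries farthest from the median of Etv1, its r with Kcnn3 was 0.51. Pdgfra and Kcnn3 had an r of 0.66, which was 0.30 without the 2 libraries farthest in Pdgfra, and Pdgfra and Pdgfa had an r of -0.10. With each group's mean taken off, Pdgfra had an r of 0.85 with Kit, 0.82 with Kitl, 0.79 with Gja1, 0.77 with Ano1 and 0.76 with Kcnn3, so Pdgfra did not pair with Kcnn3 alone.

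**Figure D4:**
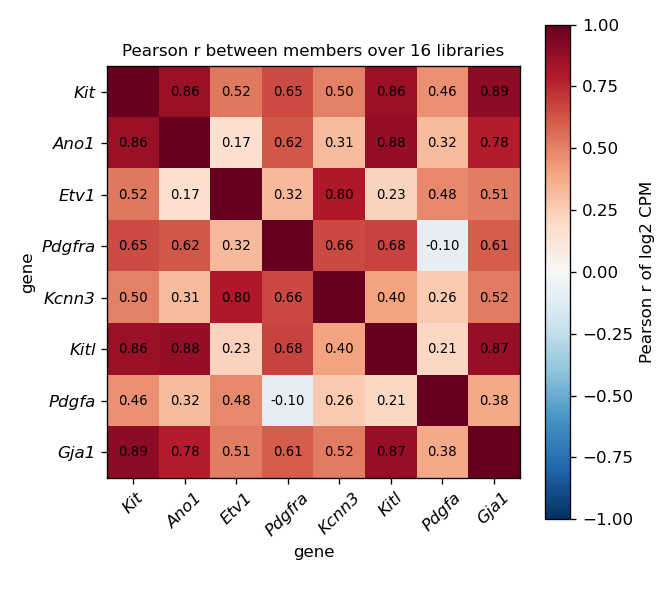
Pearson r of log2 CPM between each pair of the 8 genes (both axes) over 16 libraries, with red for positive and blue for negative values. Kit, Ano1, Kitl and Gja1 have r of 0.78 to 0.89 with each other, and Etv1 has its highest r with Kcnn3 (0.80).

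The genes most like 5 of the 8 members were named from 15196 genes with a mean of at least 1 CPM. For Kit they were Pde3a (r = 0.96), which encodes a phosphodiesterase, then Scarf2, Jag1, Piezo2 and Bmp1 (0.92 to 0.93). For Ano1 they were Cyp4f17, Esyt2, Ndst2, Tapt1 and Sidt2 (0.92 to 0.94). For Etv1 they were Dlgap1, Dpysl4, Ankrd6, Erich3 and Pde1c (0.89 to 0.91). For Pdgfra they were Rev3l, Zc3h11a, Atrx, Zfp512b and Msantd2 (0.90 to 0.94), and for Kcnn3 Kcng4, BC034090, Sipa1l2, Lgi4 and Jam2 (0.92 to 0.95). The r of deviations from the group means was 0.87 or higher for each of these 25 genes. Kdr, which lies 276 kb beyond Kit on chromosome 5, held 7.51 to 51.8 CPM, and its HSCR to WT log2 value was 0.31 (standard error 0.47) proximally and 0.20 (0.57) distally. Pdgfra lies 377 kb on the other side of Kit, and Kit and Pdgfra had an r of 0.65.

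Etv1 was low in the libraries low in enteric neuron genes. This was not particular to the neuron list. Over the 16 libraries Etv1 had an r of 0.68 with that list, 0.67 with 9 enteric glia genes and -0.68 with 12 intestinal epithelium genes. The mean log2 CPM of 15 enteric neuron genes left a gap between 1.97 and 4.23, with 6 libraries below it, and this gap was noticed after the values were seen. The 6 libraries lowest in neuron genes were also the 6 lowest in Etv1, with 19.7 to 94.6 CPM against 101 to 198 CPM in the other 10. They were HSCR proximal 1 and 2, WT distal 1 and HSCR distal 2, 3 and 4. Of 15181 other genes, 1.71% had the same 6 libraries as their lowest. HSCR distal 1 was not among the 6. For Kcnn3, Pdgfa and Gja1 the lowest 6 shared 4 libraries with this set, for Kit, Ano1 and Kitl 3, and for Pdgfra 2. Between HSCR and WT the neuron list had a median log2 fold change of -1.83 in the proximal colon and -1.55 distally. Of its genes 0 were called, as of all genes. In the proximal colon 14 of 15 lay below 0, 6 were lower at an unadjusted p under 0.05 (6.62% of all genes reached it in either direction) and 3 had groups that did not overlap (4.86% of all genes). In the distal colon 12 of 14 tested lay below 0, with 0 at that p and 0 without overlap. Its part in the values of Etv1 was not tested.

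**Figure D5:**
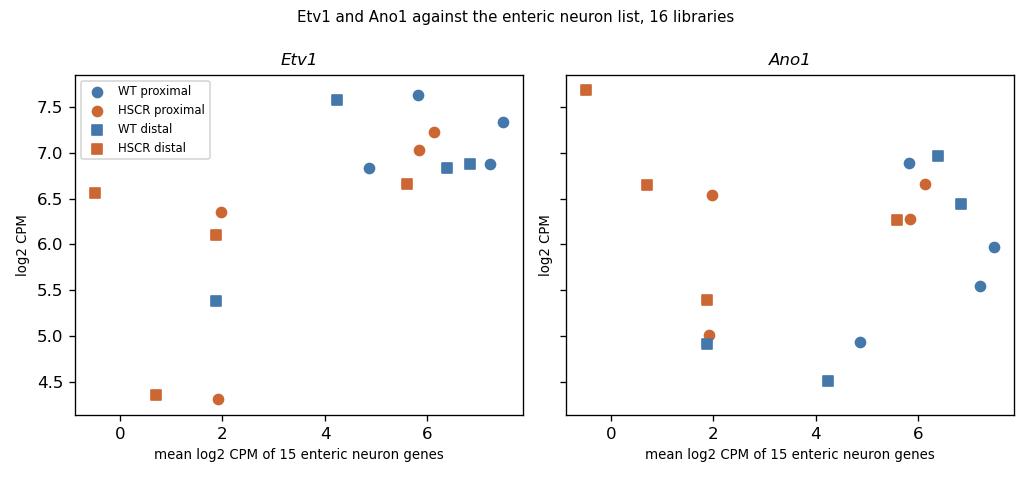
Log2 CPM of Etv1 and Ano1 (y axis) against the mean log2 CPM of 15 enteric neuron genes (x axis) in 16 libraries, with blue for WT, orange for HSCR, circles for the proximal and squares for the distal colon. The 6 libraries at or below 1.97 on the x axis are the 6 lowest in Etv1, whereas Ano1 has its highest value (206 CPM) in the library lowest in neuron genes.

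Lists of other cell types were set beside the members in the same libraries. Kit had an r of 0.82 with the mean of 8 endothelium genes, and 0.71 without the 2 libraries farthest in that list. Kcnn3 had an r of 0.83 with 10 fibroblast genes, but 0.33 without 2 libraries, so this relation rests on them. With 12 intestinal epithelium genes the r was -0.38 for Kit, -0.68 for Etv1 and -0.51 for Kcnn3. Between HSCR and WT all 12 epithelium genes lay above 0 in both segments, with medians of 2.90 proximally and 1.09 distally. The 9 glia genes had medians of -1.69 and -0.69, the fibroblast genes 0.42 and 0.10, and the smooth muscle genes -0.0072 and 0.18. The medians were -2.97 and 1.81 for the 6 adipocyte genes tested, all 6 of which lay above 0 distally, and -0.13 and -0.48 for 8 macrophage genes, all 8 of which lay below 0 distally. They were -0.040 and 0.38 for endothelium and 0.14 and 0.75 for 6 mesothelium genes. The part of these cells in the members' values was not tested.

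Further genes of the same cells and pathways were followed by list, and over all 21 lists and all 5 comparisons edgeR called 0 listed genes. Of 12 other Cajal cell genes, 5 lay above and 7 below 0 in HSCR in the proximal colon, with a median log2 fold change of -0.14, beside 0.04 over all genes, and 0 were called. Thbs4, which encodes thrombospondin 4, had the smallest p of these. Its log2 value was 1.87 (standard error 0.44, edgeR adjusted p = 0.601) proximally and 1.61 (0.57) distally. The study itself singled this gene out on these libraries. Its groups did not overlap in the proximal colon, as was so for 4.86% of all genes. Of 10 other Pdgfra cell genes, 5 lay above and 5 below 0 in both segments and 0 were called. Entpd2, an ectonucleotidase gene also listed for enteric glia, was at -1.69 (0.35, edgeR adjusted p = 0.525) proximally, where its groups did not overlap either, and -0.93 (0.42) distally. The mean of the 10 other Pdgfra cell genes had an r of 0.90 with Kit and 0.78 with Ano1, but 0.63 with Pdgfra and 0.66 with Kcnn3. That list therefore did not follow the Pdgfra cell members more closely than the Cajal cell members Kit and Ano1. The mean of the 12 other Cajal cell genes had an r of 0.77 with Kit, 0.75 with Ano1, 0.60 with Etv1 and 0.76 with Kcnn3. Without the 2 libraries farthest in that list these were 0.74, 0.82, 0.087 and 0.31.

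Downstream of KIT, 28 signalling genes had a median log2 value of -0.03 proximally and -0.28 distally, beside 0.04 over all genes in each segment. In the distal colon 22 of the 28 lay below 0, and 0 were called in either segment. Fyn, a Src family kinase gene, had the smallest p in the proximal colon (-0.95, standard error 0.29, edgeR adjusted p = 0.691). Between the WT segments 24 of the 28 lay above 0 in the distal colon, with a median of 0.43, beside 0.03 over all genes. An unadjusted p under 0.05 was reached by 6 of them and by 5.23% of all genes, and 0 were called. Segment and library name cannot be told apart for replicates 3 and 4 of this comparison. The 9 PEA3 ETS and MAPK feedback genes are relatives of ETV1 and feedback genes of MAPK signalling. Their medians were -0.35 proximally and -0.42 distally, beside 0.04 over all genes in each segment. Below 0 lay 6 and 8 of the 9, and 0 were called.

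The list named for the PDGF family was broader than that family. It also held Vegfa, Kdr, Flt1, Flt4, Nrp1, Csf1r, Flt3 and Plat, which encode neither PDGF ligands nor PDGF receptors. Of its 12 genes tested, 9 lay above 0 in HSCR proximally and 8 distally, and 0 were called. Their medians were 0.32 and 0.34, beside 0.04 over all genes in each segment. Pdgfc, another PDGFRA ligand gene, had the smallest p in both segments, at 0.57 (standard error 0.29) and 1.08 (0.51). The PDGF ligand genes did not share a direction, with Pdgfb at -0.83 proximally and -0.81 distally and Pdgfd at 0.38 and -0.18. Among 9 anoctamin genes, the family of Ano1, Ano2 had the smallest p in the proximal colon at a mean of 2.32 CPM. Of 17 connexin genes 11 passed the filter on low counts, and 0 were called in either segment.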

How the data were processed

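LMMP RNA from 16 libraries was grouped by the titles, since the tissue entries of the distal samples name the proximal colon. All samples carry 1 batch label, and whether libraries share a mouse is not stated. Per the submitters' processing notes, the authors used HISAT2 (2.2.1), mm39 and featureCounts (2.0.6), the last with the GENCODE gene model by the Methods; the deposited counts are whole numbers without normalization. Whether the libraries and their counting were stranded is not given in the sources used here. The authors also deposited FPKM values. The deposited log2 fold changes and p-values of the authors' own comparisons were not used. Counts were tested with edgeR (4.0.16, R 4.3.3) by its quasi-likelihood test on genes kept by filterByExpr, with TMM factors, and p-values were adjusted over all those genes by the Benjamini-Hochberg method. The Methods name RUVr and a likelihood ratio test, which were kept as an alternative. CPM used TMM factors over all libraries, and log2 CPM a prior count of 0.5. Single values had an exact permutation test, two-sided. The score of position was a mean over 25 genes with higher levels distally in WT mice minus a mean over 25 with lower levels, in log2 CPM, by smallest p. The members, the 21 gene lists and the alternatives were chosen with earlier results of these data known. Of each list the gene with the smallest p was named, with Ednrb, Kdr, further genes of the PDGF list and the 5 genes most like a member. One listed gene is not reported here. Other alternatives were DESeq2 (1.42.0), RLE factors, no filter, no mitochondrial genes, a library name series term, a replicate block, all 16 libraries in 1 fit, and leaving out libraries. Upstream windows came from RefSeq (GRCm38.p6) and matched by symbol for all 8 members; windows that overlapped transcripts at length were not printed. Promoter coordinates are on another build than the gene positions (mm39). The p-values measure the spread between these libraries. Figures were drawn with matplotlib.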

Additional observations from a re-analysis of the deposited data

Results flagged for a closer look

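In 3 of 64 groups of 4 libraries examined (8 genes and 8 differences between members, in 4 groups each), the gap between 1 library and the nearest of the others exceeded Dixon's 95% critical value, which chance passes in about 1 in 20 groups. For Kitl in HSCR proximal, library 2 lay at 6.44 log2 CPM, where the other 3 lay between 7.49 and 7.64. For Kcnn3 minus Pdgfra, HSCR proximal 2 lay at -2.68 on the log2 scale, where the other 3 lay between -0.72 and -0.56. For Etv1 minus Kit, WT proximal 2 lay at -0.52, where the other 3 lay between 0.95 and 1.03. HSCR proximal 2 is the library with 17863 CPM of epithelium genes, whose part in these values was not tested.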

How the results depend on the processing

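Over 40 pairs of member and comparison, 344 fits under another setting reversed 14 values and called 1, and 384 fits with 1 library left out reversed 40 and called 0. The other fits kept their direction and side of the threshold, and the cause of each change was not tested. DESeq2 called 237 genes proximally, 45 distally, 70 between WT segments, 4 between HSCR segments and 9 for the difference between segments, and RUVr 3194, 1450, 2540, 614 and 727, where edgeR called 0, 0, 3, 0 and 0. A series term gave 4 genes proximally. Between WT segments the replicate block gave 1 gene and all 16 libraries in 1 fit 0. The names of replicate 1 and 2 libraries share a number across the 4 groups and those of 3 and 4 do not, and the labels do not say what it marks. Same-numbered libraries did not deviate together in every pair, nor did every library correlate best with its own number. The WT libraries 1 and 2 and the HSCR libraries 2 and 4 correlated best with their own number between segments. Distal libraries 4 did so between genotypes. The replicate block was therefore kept as an alternative. The count was 0 to 2 between WT segments with 1 library left out. RUVr called Pdgfra between WT segments (1.04, adjusted p = 0.00952). Reversed values were Kit proximally at 0.14 (RUVr) and 0.20 (replicate block), Pdgfa distally at -0.27 (without the libraries labelled HSCR 1), and Etv1 for the difference between segments at 0.0077 (RUVr). Between WT segments, Kitl was at -0.020 (DESeq2), -0.021 (RLE), -0.016 (all 16 libraries), -0.036 (RUVr), -0.048 (series term) and -0.047 (replicate block), and Ano1 at -0.24 (series term) and -0.032 (replicate block). Between HSCR segments Kcnn3 was at 0.15 (RUVr) and 0.26 (replicate block). The proximal Cajal minus Pdgfra difference was -0.46 against Pdgfra alone. Without WT distal 1, 1 member (Kcnn3, HSCR against WT distally) had an exact p under 0.05; with any other library left out it was 0 members. With any single library left out, the log2 ranges that crossed 0 were, for HSCR against WT proximally, Ano1 -0.017 to 0.68, Kit -0.36 to 0.74, Kitl -0.0044 to 0.33, Pdgfra -0.027 to 0.67. For HSCR against WT distally, Gja1 -0.048 to 0.83, Kit -0.38 to 1.23, Pdgfa -0.27 to 0.32, Pdgfra -0.71 to 0.077 were the ranges. For distal against proximal WT colon, Ano1 -0.43 to 0.51, Kit -0.84 to 0.51, Kitl -0.17 to 0.18 were the ranges. For distal against proximal HSCR colon, Ano1 -0.090 to 0.74, Gja1 -0.070 to 0.85, Kcnn3 -0.58 to 0.25, Kit -0.62 to 0.84, Kitl -0.022 to 0.57, Pdgfa -0.36 to 0.070, Pdgfra -0.080 to 0.74 were the ranges. For the difference between segments, Ano1 -0.098 to 0.88, Etv1 -0.42 to 0.27, Kit -0.25 to 1.30 were the ranges. Counting error was small, since 131 counts was the lowest value of a member.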
